A study of Sthenoteuthis oualaniensis with 24 samples.

Results

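In the dwarf form (DF) of the purpleback flying squid *Sthenoteuthis oualaniensis* (SA), 253 of 68627 assembled unigenes were abundant in the intestine and scarce in the stomach of immature and mature animals alike. These intestine-enriched unigenes were chosen by their values in the same libraries. The mean of the 3 libraries had to be at least 20 FPKM, the authors' expression value scaled to transcript length and library size, in immature and in mature intestine, and, after 0.5 FPKM was added to each mean, at least 8 times the stomach mean at each stage. They made up 0.369% of the DF unigenes and 5.19% of the 4877 that reached 20 FPKM in the intestine at both stages.

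RNA had been sequenced from intestine and stomach of wild-caught SA of the DF, the smaller form without a dorsal photophore, and of the medium form (MF), in 8 groups of 3 libraries each. The 4 DF groups were immature intestine (DUI), mature intestine (DDI), immature stomach (DUS) and mature stomach (DDS). Both tissues of a stage came from the same 3 animals, while immature and mature SA were different animals, and no treatment or genetic change was involved. Each form had its own assembly, so a DF unigene has no counterpart by ID in the MF.

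In squid, food is broken up in a muscular, cuticle-lined stomach with enzymes that come from the digestive gland. Digested food moves on through the caecum, and the intestine, a tube with a folded, ciliated and mucus-secreting epithelium, takes part in absorption and carries the remains to the anus. Transcripts found in the intestine and hardly in the stomach therefore come from tissues of different structure and role. The deposited files do not pair unigene IDs with gene names, so neither the tissue labels nor the roles of the 253 unigenes could be checked against marker genes. Each of the 12 DF libraries correlated best with a library of its own group. Across the stages, the intestine libraries did not group by tissue. Pearson's r across unigenes on the log2 scale was 0.745 to 0.954 within a tissue and 0.675 to 0.773 between tissues. Each intestine library correlated more with every DUS library (0.751 to 0.7729) than with any intestine library of the other stage (0.7451 to 0.7515). The points are unigenes and share the assembly and the depth of each library.

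The intestine-enriched unigenes held a part of all intestinal FPKM that the rule helped to set, since it required at least 20 FPKM there. They summed to 3.99% ± 0.0071 of all FPKM in DUI (SD, n = 3) and to 3.52% ± 0.0434 in DDI. In the stomach, they summed to 0.118% ± 0.0017 in DUS and 0.0474% ± 0.0034 in DDS. The summed level was 32764, 32648 and 32765 FPKM in the 3 DUI libraries and 28466, 28825 and 29349 FPKM in the 3 DDI libraries, so that every mature library was below every immature one. The rule itself set the gap between the tissues, which is given as a description and was not tested. Fewer cells of a type and less RNA per cell cannot be told apart in bulk tissue.

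**Figure D1:**
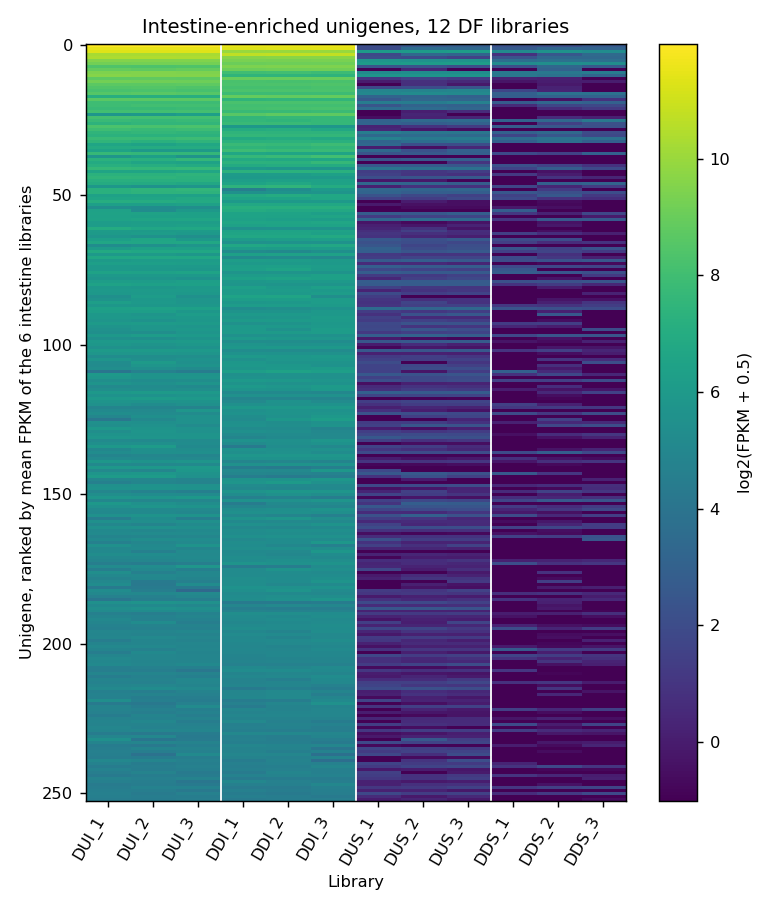
Level of each of the 253 intestine-enriched unigenes (rows, ranked by mean FPKM of the 6 intestine libraries) in the 12 DF libraries (columns), as log2(FPKM + 0.5). The left 6 columns (DUI, DDI) lie above the right 6 (DUS, DDS) in every row, and the 3 DDS columns hold 86 to 150 unigenes listed at 0.

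A few unigenes carried much of this total. The 2 most abundant held 21.2% of the summed level in DUI and 19.3% in DDI, and the 10 most abundant held 47.2% and 41.6%. Most members were far lower. The median of the group means was 46.2 FPKM in DUI and 46.7 FPKM in DDI, and 139 members in DUI and 145 in DDI lay below 50 FPKM. Only 10 members in DUI and 9 in DDI reached 500 FPKM. Among the 100 most abundant unigenes of the intestine, 5 in DUI and 4 in DDI belonged to the set.

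The most abundant member, CL64105Contig1, had 3994, 3971 and 3990 FPKM in the DUI libraries and 2936, 2937 and 3074 FPKM in the DDI libraries. It ranked 9 among all DF unigenes in DUI and 18 in DDI. In the stomach it was 3.53 to 6.26 FPKM in DUS and 3.86 to 5.42 FPKM in DDS. Its mature intestine libraries were all lower than its immature ones, by a log2 ratio of −0.42, which is less than 2-fold, and its stomach libraries overlapped between the stages.

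The second most abundant member behaved alike, with means of 2945 FPKM in DUI and 2581 FPKM in DDI, against 8.25 FPKM in DUS and 7.76 FPKM in DDS. The third, with 2592, 2562 and 2555 FPKM in DUI, fell to 999, 1015 and 1012 FPKM in DDI. It also had one of the highest stomach levels of the set, with 66.1 to 72.9 FPKM in DUS and 36.2 to 49.8 FPKM in DDS. Its libraries did not overlap between the stages in either tissue.

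The intestine to stomach ratio was larger in mature than in immature SA for most members. Its median on the FPKM + 0.5 scale was 20.5 in immature SA (range 8.05 to 720) and 51.3 in mature SA (range 8.31 to 834). At least 32 was reached by 73 members in immature and by 176 in mature SA, and the ratio was larger in mature SA for 215 of 253. No share over other unigenes is given beside these counts. Stomach values were lower in mature SA over all unigenes tested there too, with a median log2 ratio of −0.37. Over the other unigenes of at least 20 FPKM in the intestine it was −0.09, but most of these had a much higher stomach level than the members. The mature ratio depends on the pseudocount, because 69 members were listed at 0 in all 3 DDS libraries. The medians were 25.6 and 132 with 0.1 FPKM and 16.3 and 29.5 with 1 FPKM. Among the 184 members above 0 in at least 1 DDS library, they were 19.3 and 38.4. Mature SA had the larger median in each of these.

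**Figure D2:**
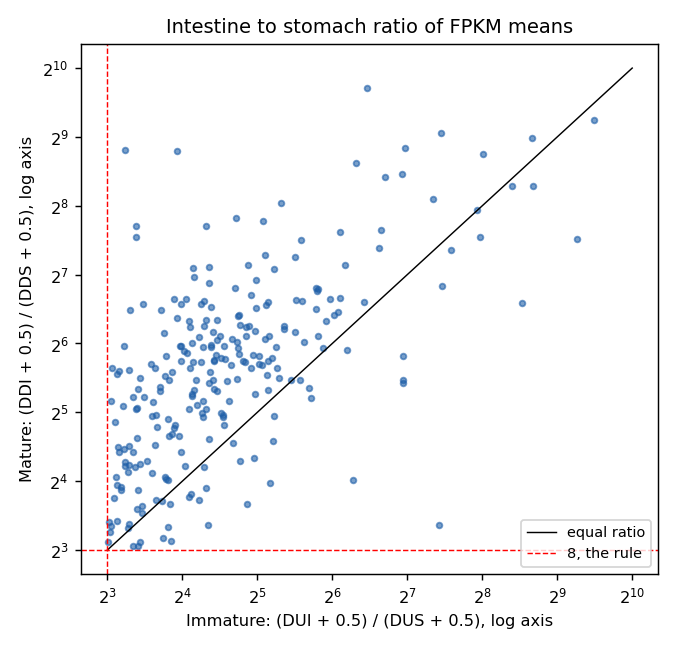
Intestine to stomach ratio of the 253 members in immature (x axis) and mature SA (y axis), from group means with 0.5 FPKM added, on log axes. Dashed lines mark the ratio of 8 that chose the members, and 215 points lie above the line of equal ratio.

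At the edge of the rule, the member with the lowest ratio had 8.05 and the unigene just outside had 7.95. By level, the lowest member had 20.2 FPKM in its lower group and the highest unigene left out by level had 19.98 FPKM. A further 624 unigenes passed both ratios but were below 20 FPKM in DUI or DDI. Among unigenes of at least 20 FPKM at both stages, 284 passed the ratio in immature SA, of which 89.1% were members. In mature SA 420 passed, of which 60.2% were members.

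The question of the maturity comparison was how the intestine and stomach of SA differ between the stages. In the intestine, 17 members were higher in mature SA, 21 were lower, and most of the others differed little. These counts come from limma with an adjusted p of 0.05 (Benjamini-Hochberg) and a log2 fold change of at least 1 in size. Among all 54695 unigenes tested, 12.2% were called (5.74% higher and 6.49% lower), against 15.0% of the members. The rule required at least 20 FPKM at both stages, so the other 4624 unigenes of that level are the closer background, and 4.82% of them were called (3.18% higher and 1.64% lower). In the 49 members with a read estimate and at least 10 reads, the libraries of DUI and of DDI differed about as much as counting reads alone would give. The calls rest on the spread between these libraries, and no p is given for a single unigene. With the 3 DUI libraries averaged to 1 sample, 14 members were called higher and 19 lower, but the spread then comes from DDI alone, where replicates 1 and 2 differed by less than counting would give. With these 2 averaged, 16 were called higher and 21 lower.

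By size alone, 17 members were at least 2-fold higher in DDI than in DUI and 20 were at least 2-fold lower, and in all 37 the libraries of the stages did not overlap. In the set these were 6.72% and 7.91%. Rises of this size with no overlap occurred in 8.37% of all unigenes tested and falls in 9.29%, and in 3.24% and 1.64% of the other unigenes of at least 20 FPKM. Of the remaining members, 171 were within 1.5-fold and 45 differed by 1.5-fold to 2-fold. A member below 40 FPKM in DUI could not have fallen 2-fold and stayed in the set, and 106 members were below that level.

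The typical difference in the intestine was small and leaned to higher values in mature SA. The median log2 ratio of DDI to DUI was 0.07 (quartiles −0.32 and 0.40), beside −0.10 over all unigenes tested and −0.02 over the other unigenes of at least 20 FPKM. The median size of the ratio, whatever its sign, was 0.38, beside 0.26 in the latter. Every DDI library was above every DUI library for 100 members (39.5%) and below for 78 (30.8%). Over all unigenes tested these shares were 15.4% and 20.6%, and among the other unigenes of at least 20 FPKM they were 28.4% and 32.7%.

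**Figure D3:**
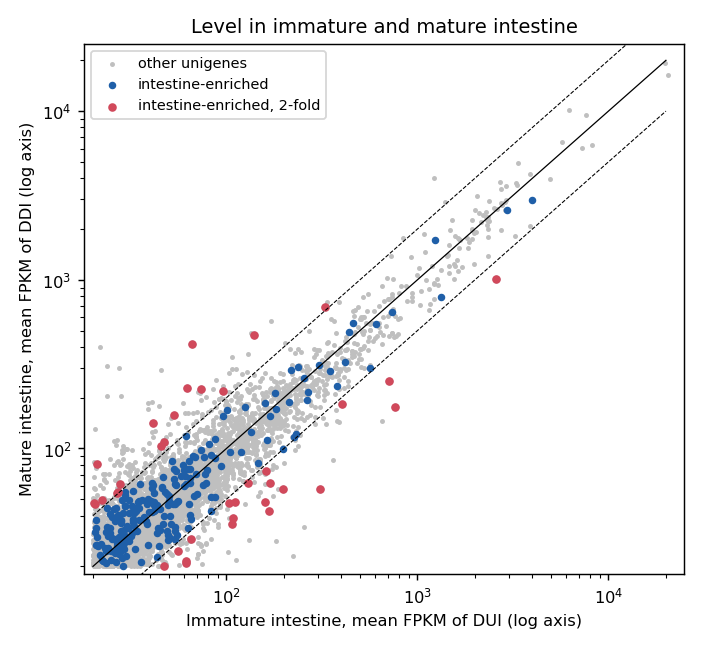
Mean FPKM in mature (y axis) against immature intestine (x axis), on log axes, for the 253 intestine-enriched unigenes and the other 4624 unigenes of at least 20 FPKM at both stages. Red points are the 17 members at least 2-fold higher and the 20 at least 2-fold lower in mature SA, and dashed lines mark 2-fold.

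The share of members with a 2-fold difference was higher at higher levels, which the rule partly sets, since a 2-fold difference needs a mean near 40 FPKM or more at one stage. The other unigenes of at least 20 FPKM are under the same limit. Of the 51 members with an intestine mean of at least 100 FPKM, 7 were at least 2-fold higher and 10 at least 2-fold lower, or 33.3%, against 8.51% of 917 other unigenes of that level. Between 50 and 100 FPKM, 15.0% of 60 members changed 2-fold, against 7.73% of 1139 others. Between 20 and 50 FPKM, it was 7.75% of 142 members, against 2.38% of 2568 others.

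As the rule kept both means at 20 FPKM or more, a member that fell 2-fold had to start near 40 FPKM or above. One that rose could start at 20 FPKM, and the starting levels of the members that fell and rose overlapped. The DUI means of the 20 that fell ran from 46.9 to 2570 FPKM with a median of 144, and their DDI means had a median of 48.2 FPKM. The members that rose had DUI means of 20.2 to 327 FPKM (median 45.7) and DDI means of 46.7 to 688 FPKM (median 109). Falls ranged from 2.05-fold to 5.34-fold (median 2.74) and rises from 2.02-fold to 6.27-fold (median 2.31), all on the FPKM + 0.5 scale.

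The summed differences are given as a description, since members were sorted by their direction. The 20 members that fell dropped by 4143 FPKM in sum, from 6455 to 2312 FPKM, and the 17 that rose added 2037 FPKM, from 1117 to 3154 FPKM. The other 216 members dropped by 1739 FPKM in sum, from 25154 to 23415 FPKM. A few unigenes made up much of this. The third most abundant member alone dropped by 1561 FPKM, and 3 members under 2-fold together dropped by 1900 FPKM, more than the net of the 216. The net difference over all members was −3845 FPKM.

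The largest rise was that of CL4573Contig1. It had 54.8, 65.1 and 78.2 FPKM in the DUI libraries and 384, 429 and 437 FPKM in the DDI libraries, a rise of 2.65 on the log2 scale. In the stomach it was listed at 0.757 FPKM in 1 DUS library and at 0 in the other 5. Every mature intestine library was thus well above every immature one, and the stomach values were too low to be compared.

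CL58930Contig1 had the next largest rise. It had 16.1, 25.7 and 21.0 FPKM in DUI and 76.7, 86.8 and 79.0 FPKM in DDI, a rise of 1.92 on the log2 scale, with no overlap. Its mean in DUI of 20.9 ± 4.79 FPKM (SD, n = 3) was close to the level the rule required, and 1 of the DUI libraries was below it. Its stomach values were 2.36, 0.321 and 1.94 FPKM in DUS and 7.37, 0.952 and 0 FPKM in DDS, so that a single DDS library held most of the mature stomach level and the stages overlapped.

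The largest fall was that of CL40490Contig1, with 316, 297 and 314 FPKM in DUI and 60.4, 56.1 and 55.9 FPKM in DDI. It fell by 2.42 on the log2 scale. In the stomach the order was turned around, with 0.705, 1.37 and 1.86 FPKM in DUS and 6.40, 5.03 and 3.99 FPKM in DDS, a log2 ratio of 1.64. These stomach values are low. The value of 1 read could not be estimated for this unigene. In the members where it could, its median was 0.139 to 0.339 FPKM in the DUS libraries and 0.421 to 1.5 FPKM in the DDS libraries. Those members were picked for few reads in some libraries, so their read values are only a rough guide here. The libraries of the stages did not overlap in either tissue, and the level in the mature stomach was still under that in the mature intestine by a ratio of 10.3 on the FPKM + 0.5 scale, against 170.8 in immature SA.

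CL42421Contig1 fell in both tissues. Its intestine values were 769.5, 765.0 and 755.2 FPKM in DUI and 176.8, 177.9 and 173.2 FPKM in DDI, a fall of 2.11 on the log2 scale. In the stomach it had 53.8, 52.5 and 52.7 FPKM in DUS and 16.9, 14.1 and 9.03 FPKM in DDS, a fall of 1.95. The intestine to stomach ratio therefore hardly moved, from 14.3 in immature to 12.7 in mature SA.

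**Figure D4:**
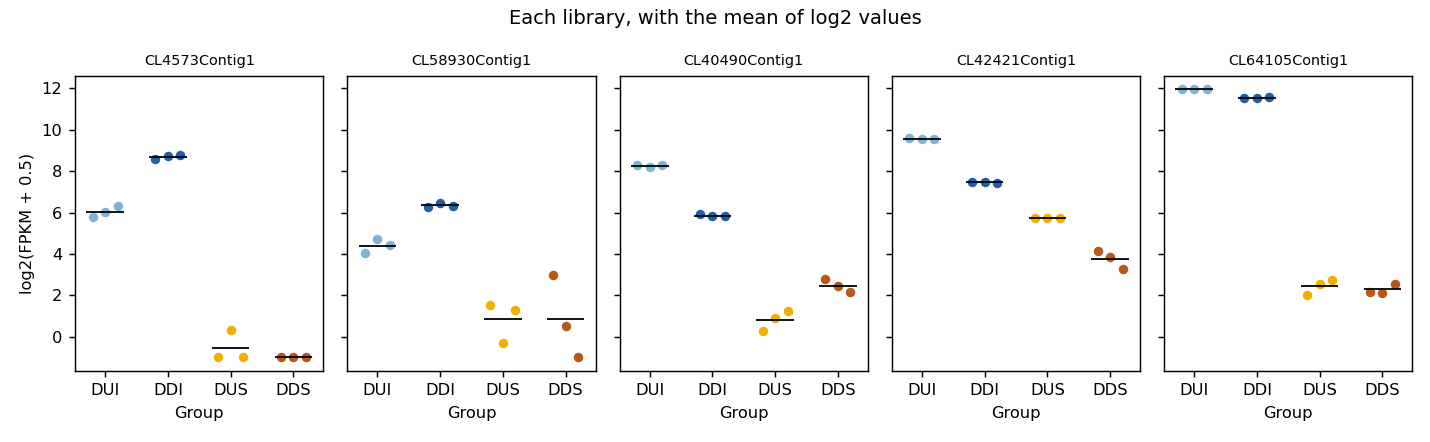
Level of 5 intestine-enriched unigenes in every DF library, as log2(FPKM + 0.5), with a bar for the mean of the 3 log2 values of a group. The 2 on the left rose in the mature intestine (DDI above DUI), the next 2 fell, and the most abundant member, on the right, differed by less than 2-fold.

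Of the 10 most abundant members, 1 rose and 2 fell by at least 2-fold. The riser, the eighth by level, had 330, 321 and 331 FPKM in DUI and 673, 694 and 696 FPKM in DDI. The tenth had 704, 718 and 703 FPKM in DUI and 258, 260 and 237 FPKM in DDI, and together with the third made up the fallers. The fourth, with 1228, 1241 and 1231 FPKM in DUI and 1710, 1755 and 1730 FPKM in DDI, was higher in every mature library by less than 2-fold.

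In the stomach, the low level of these unigenes was lower still in mature SA. The rule capped the stomach values at both stages, so the direction between the stages was not fixed by it, but the members are low there by choice. The median of the group means was 1.72 FPKM in DUS and 0.30 FPKM in DDS, and the summed level was 990 ± 15.6 FPKM in DUS and 429.9 ± 41.3 FPKM in DDS (SD, n = 3). Summed values were 975, 989 and 1006 FPKM in the DUS libraries and 389, 471 and 429 FPKM in the DDS libraries, with no overlap.

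Among the members, 181 passed the filter of a mean of 0.5 FPKM over the 6 stomach libraries and 72 did not. By limma with Benjamini-Hochberg adjustment, 82 of the 181 were lower in mature SA (45.3%) and 2 were higher (1.10%). Over all 33161 unigenes tested in the stomach, 20.3% were lower and 3.17% higher (23.5% in all). Among the other 4624 unigenes of at least 20 FPKM in the intestine 11.5% were lower and 3.01% higher, but most of these had a much higher stomach level than the members. Without DUS replicate 3 the lower calls were 51, and with quantile normalization 39. With the replicate number as a block, 52 were lower and 0 higher. Without DDS replicates 1 and 3, 68 of 200 members tested were lower, where the spread comes from DUS alone and the single DDS library is assumed to vary alike. The median log2 ratio was −1.17 over the 181 and −0.97 over all 253, beside −0.37 over all unigenes tested.

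By an estimate from low values, the stomach libraries were uneven in depth. Under the assumption that low values are whole multiples of 1 read, DDS replicates 1 and 3 had an estimated depth of 0.280 and 0.397 of that of DDS replicate 2, and DUS replicate 1 had 0.412 of that of DUS replicate 2. Between the stages, the estimate for DDS replicate 2 was 0.332 of the depth of DUS replicate 2, but only 1.82% of ratios lay at its peak. By this uncertain link the mature stomach was read less deeply. The estimate was not compared with the read totals that the paper reports. For the 50 members in which the value of 1 read could be estimated, it had a median of 1.5, 0.421 and 1.06 FPKM in the 3 DDS libraries and 0.139 to 0.339 FPKM in DUS. The median member of these had 0 to 1.00 reads in the DDS libraries and 2.0 to 5.0 in DUS, against 85.1 to 123 reads in the intestine libraries. An estimate needed at least 3 libraries with about 6 reads or fewer. It therefore favored members with few stomach reads, and these medians do not stand for the whole set. The part of depth in the count of lower members was not tested.

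More members were listed at 0 in the mature stomach. In DUS 30, 13 and 10 members were at 0, and in DDS 150, 86 and 129. Over all DF unigenes, 35.9% to 45.6% were at 0 in the DUS libraries and 56.2% to 68.3% in the DDS libraries. Listed at 0 in all 3 libraries were 5 members in DUS and 69 in DDS, while 4 members were at 0 in all 6 stomach libraries and 84 were above 0 in all 6. The DDS library with the fewest members at 0 was replicate 2, the deepest of the 3 by the estimate.

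Split by stomach level, the median was below 0 in each band. For the 72 members under 0.5 FPKM it was −0.70, beside 0 over 35394 other unigenes of that level. This band takes in unigenes listed at 0 in every stomach library, whose ratio is 0 by calculation. The median of 0 is thus no measure of unigenes detected at that level. Of the 97 members with a stomach mean of 0.5 to 2 FPKM, the median log2 ratio was −1.43, beside −0.75 over 13901 other unigenes of that level. Of the 72 members of 2 to 10 FPKM it was −0.89, beside −0.34 over 11324 others, but the 337 others that also had at least 20 FPKM in the intestine had −0.74. For the 12 members of at least 10 FPKM it was −1.16, beside −0.02 over 7755 others and −0.06 over the 4283 of them that were abundant in the intestine. In the band of 2 to 10 FPKM, the DDS libraries lay below the DUS libraries with no overlap for 54.2% of the members and 59.1% of those 337, so that the members did not stand out there.

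These 12 are the members whose stomach level is far from the limit of detection. Their intestine means were 162 to 1789 FPKM, and their summed level was 429 FPKM in DUS and 189 FPKM in DDS. In 10 of them every DDS library was below every DUS library, as was the case for 36.6% of all unigenes tested in the stomach and 34.6% of the 7755 others of that level. The steepest decline was from 29.8, 27.0 and 29.7 FPKM in DUS to 2.80, 0.712 and 0 FPKM in DDS. These DDS values are low. In the members where it could be estimated, 1 read had a median value of 1.5, 0.421 and 1.06 FPKM there. Those members were picked for few reads in some libraries, so these values too are only a rough guide. The highest level in DUS, 67.6, 70.0 and 73.3 FPKM, went with 37.8, 42.1 and 40.02 FPKM in DDS. The other two overlapped between the stages.

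**Figure D5:**
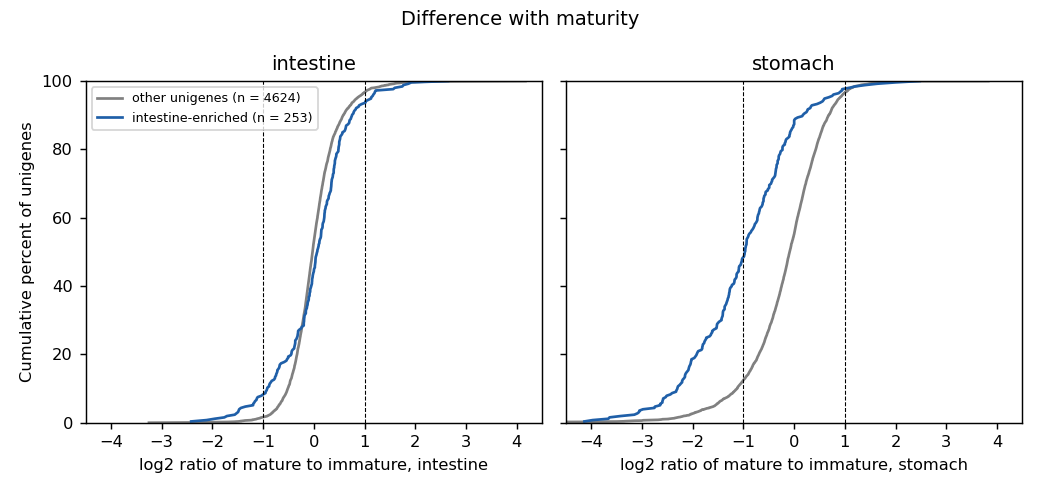
Cumulative percent of unigenes (y axis) by log2 ratio of mature to immature means with 0.5 FPKM added (x axis), in the intestine (left) and stomach (right), for the 253 intestine-enriched unigenes and the other 4624 unigenes of at least 20 FPKM in the intestine at both stages. The axis leaves out a few other unigenes with larger falls in the stomach. In the intestine the curves cross below 0 and that of the set is wider (median size 0.38 against 0.26). In the stomach the curve of the set lies to the left (median −0.97 against −0.09), but most of the other unigenes had a much higher stomach level than the members.

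The unigenes that changed in the intestine were also followed in the stomach of the same animals. By size, 10.7% of all unigenes tested in the stomach were at least 2-fold higher in mature SA and 31.2% at least 2-fold lower, or 3.97% and 24.8% with no overlap. These shares cover only unigenes past the filter of 0.5 FPKM. The members counted next include some below it, so the shares are not on a like footing. Of the 17 that rose in the intestine, 0 were at least 2-fold higher in the mature stomach and 4 at least 2-fold lower. Of the 20 that fell, 2 were higher and 9 lower. The rule required a ratio of at least 8 at each stage, so the limit on the stomach mean moved with the intestine mean. It was lowered in mature SA for members that fell and raised for those that rose, and the counts are only a description. With non-overlapping libraries in both tissues, 4 members rose in the intestine and fell in the stomach, 2 did the reverse, 9 fell in both and 0 rose in both. The 4 were listed at 0 in all DDS libraries.

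Unigenes chosen by related rules were compared with the set. The mirror rule, at least 20 FPKM in DUS and DDS and a stomach to intestine ratio of at least 8 at both stages, gave 132 stomach-enriched unigenes, or 3.54% of the 3734 of that level. In the stomach, where they are abundant, 17 of these were at least 2-fold higher and 30 at least 2-fold lower in mature SA (35.6%), beside 8.13% of the 3602 other unigenes of at least 20 FPKM in DUS and DDS. For the intestine-enriched unigenes in the intestine it was 14.6%, beside 4.91%. In the MF, the same rule gave 173 unigenes of 3068 (5.64%). In the intestine of the MF, 55 of these were at least 2-fold higher and 21 at least 2-fold lower in mature SA (43.9%), beside 17.8% of the other MF unigenes of at least 20 FPKM. The differences between these lists were not tested, and the lists hold different unigenes.

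Unigene IDs carry a cluster number and a contig number, and contigs of a cluster usually resemble each other in sequence. Among the members, 13 (5.14%) came from clusters of more than 1 contig, against 2.77% of the unigenes of at least 20 FPKM at both stages. The 253 members came from 251 clusters, so that 2 clusters held 2 members each. All 4 of these members were lower in DDI than in DUI, by log2 ratios between −0.44 and −1.12. Reads may be shared between contigs of a cluster, so these 4 are uncertain. Of the 12 other contigs of clusters with a member, 11 were below 20 FPKM in DUI or DDI.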

How the data were processed

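The authors built a separate de novo assembly for each form with Trinity, and the deposited files give an FPKM value for each unigene in each library. Which aligner and which FPKM program were used is not given in the sources at hand. Groups follow the sample labels. As FPKM are no counts, differences were fitted with limma (version 3.58.1, R 4.3.3) to log2-transformed values after adding 0.5 FPKM, with the trend option, without covariates and 2-sided. The fit took unigenes whose mean over both groups of 3 libraries reached 0.5 FPKM. P-values were adjusted over all unigenes tested. Fold changes on this scale are understated at low values. Sizes are log2 ratios of group means with 0.5 FPKM added. The step was tested on simulated data. Members, lists and comparisons were chosen with earlier results of these data known. Named unigenes were the 2 largest rises and the 2 largest falls by size in the intestine with no overlap of libraries, and the most abundant member. The other members described were chosen after their values were seen.

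Relative depth was estimated in Python 3.11.15 from ratios of low values (0.02 to 3 FPKM), assuming whole reads. The links of DUI and of DDS replicate 2 to DUS were the least certain, with 1.81% and 1.82% of ratios at their peaks, and that of DDS replicate 1 to replicate 2 had 1.96%, so the read values printed for DUI, DDI and DDS are rough. The variance between libraries over that of counting reads was taken in members with a read estimate and at least 10 reads. It was 1.11 in DUI and 1.01 in DDI (49 members each) and 1.08 in DUS (14 members), and none could be had in DDS. The read estimate favored members with few reads in some libraries. The study took each library of a group from another animal, but on average the libraries did not differ beyond counting in these members. DDI replicates 1 and 2 differed by less, with a ratio of 0.488 against 1.24 for either with replicate 3, and their r over all unigenes was 0.932 against 0.828 to 0.831, so the spread of DDI may be too small. P-values measure only the spread between these libraries, which may be technical, and in an alternative the 3 DUI libraries, and in another DDI replicates 1 and 2, were averaged to 1 sample. IDs have the form of clusters and contigs and not that of Trinity components, so clusters were used. No sequences were at hand. Alternatives were other pseudocounts, scalings, filters, thresholds, a replicate block and leaving out each library, and the stomach without DDS replicates 1 and 3 was added after seeing the data.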

Additional observations from a re-analysis of the deposited data

Results flagged for a closer look

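The difference with maturity had opposite signs in the 2 tissues for CL40490Contig1. Every mature library was below every immature one in the intestine (log2 ratio −2.42), and above in the stomach (log2 ratio 1.64). Its stomach values were low, at 0.705 to 6.40 FPKM. The median log2 ratio of the members was 0.07 in the intestine and −1.17 in the stomach, over all 253 in the former and the 181 past the filter in the latter (−0.97 over all 253), and the median was above 0 in each of the 3 mature intestine libraries (0.05 to 0.08) and below 0 in each of the 3 mature stomach libraries (−1.62 to −1.13). These differences between tissues were not tested, since the same values formed the rule that chose the members.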

How the results depend on the processing

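The counts of members higher or lower in the mature intestine, by limma and by size, stayed within 1.5 times under every alternative run. The median intestine log2 ratio was 0.021 with quantile normalization and 0.16 with median of ratios scaling, and 0.06 to 0.08 with 1 library left out. Median of ratios scaling removes log2 offsets of −0.09 between mature and immature intestine libraries and −0.21 between those of the stomach. With it the median stomach log2 ratio of the members rose from −1.17 to −0.99, and that of all unigenes tested from −0.37 to −0.19.

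The set held 458 unigenes at a tissue ratio of at least 4 and 155 at 16, 471 at 10 FPKM and 87 at 50 FPKM. With median of ratios scaling it held 188, all of them among the 253. It held 249 to 255 with 1 library left out.

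In the stomach, members lower in mature SA by limma were 39 with quantile normalization, 52 with the replicate block and 51 to 83 with 1 library left out, the lowest without DUS replicate 3. Those higher were 1 with a pseudocount of 0.1 FPKM, 7 with quantile normalization, 4 with median of ratios scaling, 1 with no filter, 4 with an unadjusted P of 0.05, 0 with the replicate block and 0 to 2 with 1 library left out. By size, 11, 17 and 10 were higher with 0.1 FPKM, quantile normalization and median of ratios scaling. The median stomach log2 ratio was −1.51 with 0.1 FPKM and −0.63 with quantile normalization, where that of all unigenes tested was 0.01, and −1.33 to −1.11 with 1 library left out. The cause was not tested.

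Over all unigenes, the replicate block lowered the calls from 6685 to 3722 in the intestine and from 7794 to 4798 in the stomach. Among the members it left the intestine at 17 higher and 21 lower. Immature and mature SA are different animals, and over all unigenes the deviations of libraries with the same number had correlations of −0.0077 to 0.0352, so the numbers were not used as pairs. Within the members these correlations were 0.127 to 0.181 in the intestine, where those of other numbers were −0.182 to 0.0106, and −0.0567 to 0.109 in the stomach. In the intestine members, same-numbered libraries thus deviated together weakly, and where this comes from was not tested. The filter left 72 members untested in the stomach, and with no filter 73 of 253 were lower and 1 higher.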
